A study of Sus scrofa with 22 samples.

Results

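The genes described here are those of the proteasome, the protease that degrades ubiquitin-tagged proteins, measured in pig tissue at 4 ages on an Affymetrix porcine expression array. Members were all genes whose single annotated symbol begins with PSMA, PSMB, PSMC, PSMD, PSME, PSMF or PSMG, each read from the probe set with the highest mean level over all samples. The rule found 40 genes, of 6765 with a named probe set on the array and of 49 pig genes with such a symbol in RefSeq. The members comprised 7 core alpha-ring and 7 core beta-ring subunits, 5 ATPases and 10 non-ATPase subunits of the regulatory particle, 4 immunoproteasome genes (PSMB8, PSMB10, PSME1 and PSME2), 4 assembly chaperones, and 3 other activators or inhibitors. No named probe set was found for PSMA8, PSMB9, PSMB11, PSMC3IP, PSMC4, PSMD7, PSMD9, PSMG2 and PSMG4, so the inducible catalytic subunit PSMB9 was not analysed here.

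Tissue was taken from 6 fetuses 94 days post conception (94 dpc), from 6 piglets on day 1 post natum (1 dpn), from 6 piglets at 28 dpn and from 4 pigs at 188 dpn. Their mothers were German Landrace gilts fed the adequate protein (AP) diet in gestation, a diet that all 4 stages share. Each stage drew on 3 gilts, so some animals of a stage are siblings, and which ones was not stated. The sample labels named the tissue liver and the series title named muscle. Of 10 skeletal muscle markers 7 were measured, and all 7 had means above background at every stage, with a summed signal whose median was 204932, 352986, 444688 and 412745 at 94 dpc, 1 dpn, 28 dpn and 188 dpn. Of 10 liver markers 0, 1, 2 and 2 had means below background at these stages, and their summed signal had medians of 17743, 3941, 2915 and 2760. The samples are named by age here, since the data go against the tissue in their labels.

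The proteasome consists of a barrel-shaped core particle capped by regulatory particles. The outer alpha rings of the core gate the entry of substrates, and the inner beta rings carry the proteolytic sites on PSMB5, PSMB6 and PSMB7. The regulatory particle binds ubiquitin chains, removes them and, with a ring of ATPases, unfolds the substrate and feeds it into the core. Interferons induce PSMB8, PSMB9 and PSMB10, which replace the standard catalytic subunits and shape peptides for major histocompatibility complex class I, as well as PSME1 and PSME2, the subunits of an ATP-independent activator. In skeletal muscle the ubiquitin-proteasome system turns over myofibrillar proteins, and its activity is known to rise in wasting.

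The 1 dpn arrays were not uniform. The ratio of 5′ to 3′ signal of GAPDH, a check of transcript integrity printed on the array, was 0.14 to 0.33 on 4 of the 6 arrays of 1 dpn (replicates 2 to 5), 1.14 and 1.15 on the other two (replicates 1 and 6), and 0.73 to 1.26 on the arrays of the other stages. Correlations of log2 levels between arrays of a stage were 0.882 to 0.931 at 1 dpn, against 0.961 to 0.968 at 94 dpc, 0.929 to 0.942 at 28 dpn and 0.930 to 0.940 at 188 dpn. The 2 arrays of even 5′ signal are called the even arrays, and a value after these words is the log2 change with them as the only newborn arrays. Of the 40 members, 22 had both even arrays above all 4 others (55%, against 10.6% of all probe sets) and 1, PSMA7, had both below (2.5%, against 16.5%). All 880 member values lay above a background signal of 69.7 set from control probe sets, and all 40 members were brighter than the median probe set. Because whole tissue was measured, fewer cells of a type and less RNA per cell cannot be told apart.

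Over the 4 stages 33 of the 40 members differed (limma F test, adjusted p under 0.05), against 51.4% of all 23999 probe sets. The 7 that did not pass were PSMA6, PSMB2, PSMB3, PSMC1, PSMC5, PSMD8 and PSMF1. The mean log2 level was highest at 1 dpn for 16 members, at 188 dpn for 18, at 28 dpn for 4 and at 94 dpc for 2. With the even arrays only, 24 members were highest at 1 dpn, 9 at 188 dpn, 4 at 28 dpn and 3 at 94 dpc. No core or regulatory particle subunit was highest at 94 dpc or 28 dpn by either count. Some peaks were close, as for PSMD1 (mean log2 11.80 at 1 dpn and 11.82 at 188 dpn). By mean signal PSMA2 (11843 at 1 dpn against 11612 at 188 dpn), PSMC1 (3669 against 3483) and PSMD2 (4229 against 4156) were highest at 1 dpn, not 188 dpn. The share of all probe sets that peaked at each stage is not given here. Spread within a stage was larger at 1 dpn, where the SD of the log2 level had a median of 0.48 over the members, against 0.15 at 94 dpc, 0.21 at 28 dpn and 0.16 at 188 dpn.

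**Figure D1:**
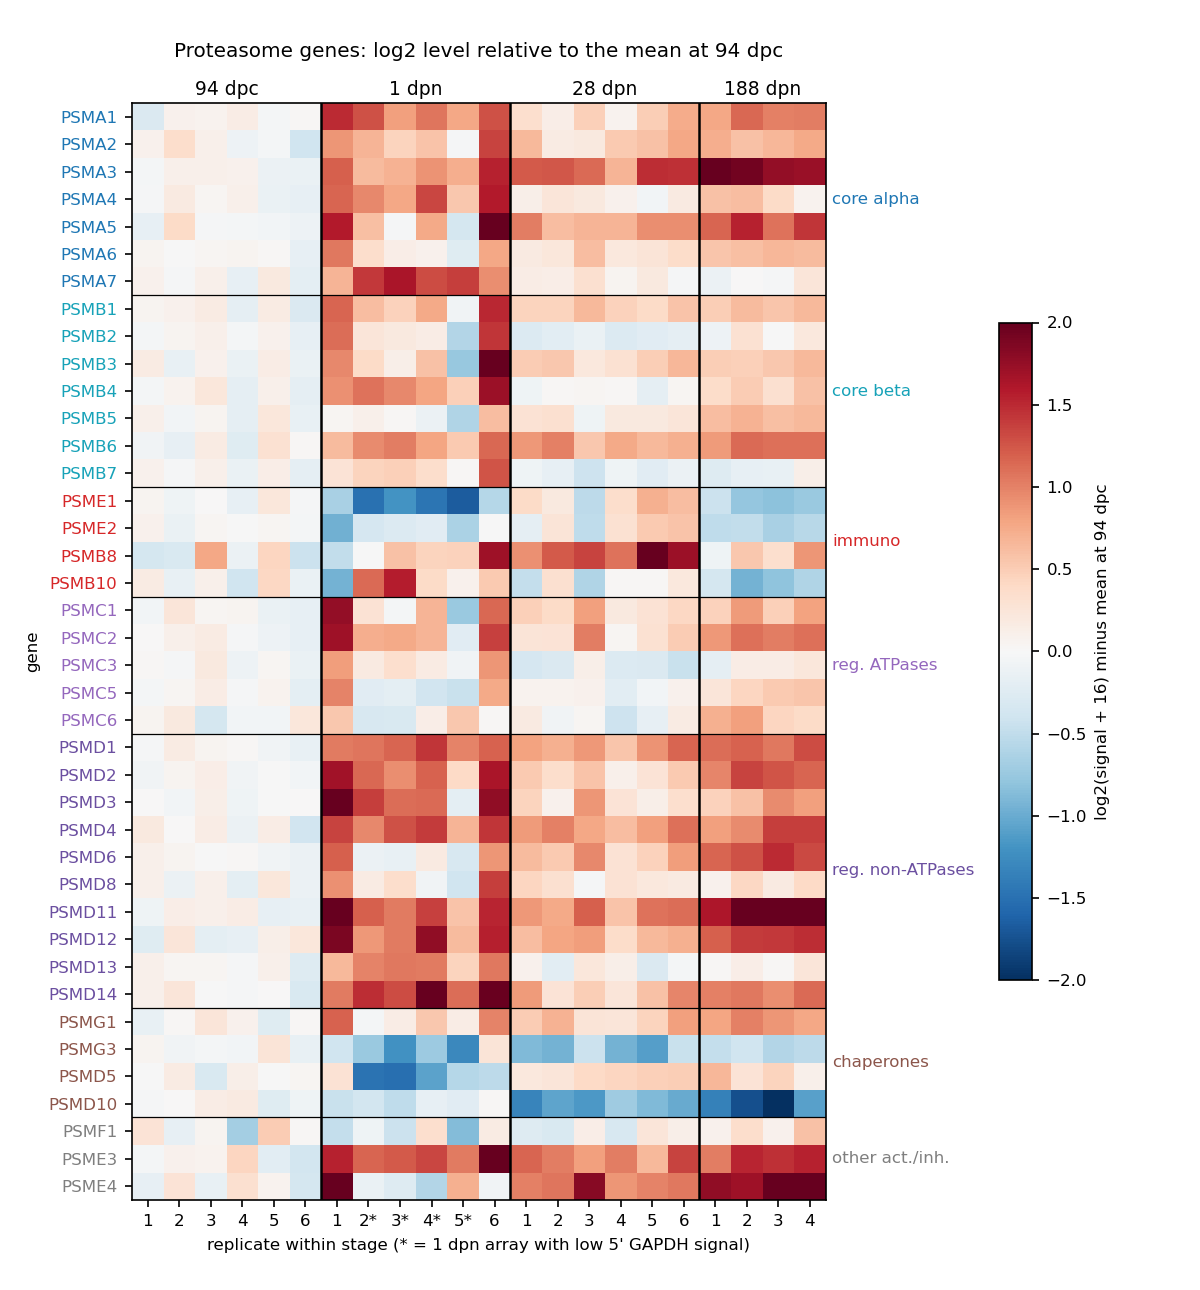
Each row is a member gene, grouped by role, and each column an array. Colour gives the log2(signal + 16) level minus the gene's mean at 94 dpc, with values beyond 2 in either direction drawn at the end of the scale, and asterisks mark the 4 arrays of 1 dpn with low 5′ GAPDH signal. Most core and regulatory rows are red at 1 dpn and strongest in replicates 1 and 6, PSME1 is blue at 1 dpn, and PSMB8 is reddest at 28 dpn.

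Many core and regulatory subunits were higher at 1 dpn than at 94 dpc. In newborn tissue against fetal tissue, 20 members were higher and 3 lower (limma, adjusted p under 0.05), against 10.9% higher and 21.7% lower among all probe sets tested. The median change of the 40 members was log2 0.56, against -0.08 over all probe sets. Among the 8080 probe sets at least as bright as the dimmest member, 20.2% were higher and 31% lower. The 29 core and regulatory subunits accounted for 19 of the rises and none of the falls, with a median of log2 0.83. By the even arrays alone, 30 members were higher and 0 lower, against 7.79% and 17.6% of all probe sets, and the median change of the members was log2 1.11. Centring each array on its median moved the median of all probe sets to log2 0.18 and that of the members to 0.82. Of 7 measured skeletal muscle markers 6 were higher and 0 lower at 1 dpn than at 94 dpc (median log2 0.56), and of 4 measured fibroblast markers 0 were higher and 3 lower (median -1.06). The summed signal of the muscle markers had a median of 352986 at 1 dpn, against 204932 at 94 dpc, with overlapping ranges, and that of the fibroblast markers was 10195 to 16264 at 1 dpn, against 26457 to 33641 at 94 dpc. These marker values were taken from all newborn arrays, including those of low 5′ signal. The part of muscle and fibroblast content in the change of the members was not tested.

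PSMD14, the deubiquitinase of the regulatory particle that cuts ubiquitin chains from substrates, had the largest rise among the subunits of the particle with all arrays. Its signals, given for every gene as the lowest, median and highest of 6 animals and as all 4 values at 188 dpn, were 996, 1241 and 1472 at 94 dpc, 2563, 3290.1 and 5225 at 1 dpn, 1472, 1813 and 2449.8 at 28 dpn, and 2523, 2600.3, 2384 and 2728 at 188 dpn. All newborn animals lay above all fetal animals and all animals of 28 dpn. The newborn level was 2.82-fold that of 94 dpc (log2 1.50, SE 0.19, adjusted p = 2.73e-06). With the even arrays the change was log2 1.51, and PSMD3, PSMD11, PSMD12, PSMD2 and the ATPase PSMC2 had larger rises.

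Of the non-ATPase subunits 8 of 10 were higher at 1 dpn than at 94 dpc. PSMD11, a lid subunit that joins the lid to the core particle, had signals of 3459, 3902 and 4309 at 94 dpc, 5770.1, 9452 and 15728 at 1 dpn, 5757, 7672 and 8918 at 28 dpn, and 11864, 16301, 15699 and 17024 at 188 dpn. It rose 2.44-fold at 1 dpn (log2 1.29, SE 0.19, adjusted p = 2.57e-05; log2 1.77 with the even arrays), with no overlap between newborn and fetal animals. With its probe sets averaged, the change of PSMD11 was log2 0.47 and was not called (adjusted p = 0.26). PSMD12, another lid subunit, had signals of 722, 1164 and 1729.8 at 1 dpn, against 387, 454 and 547 at 94 dpc (log2 1.29, SE 0.20, adjusted p = 2.61e-05, even arrays 1.71). PSMD3 (log2 1.23, SE 0.26, adjusted p = 0.000968, even arrays 1.98), PSMD4, a ubiquitin receptor (log2 1.18, SE 0.17, adjusted p = 1.19e-05, even arrays 1.39), and the large scaffold subunits PSMD2 (log2 1.16, SE 0.18, adjusted p = 3.6e-05, even arrays 1.66) and PSMD1 (log2 1.15, SE 0.13, adjusted p = 1.14e-06, even arrays 1.11) rose too, as did PSMD13 (log2 0.87, SE 0.15, adjusted p = 8.12e-05, even arrays 0.85). Of these, PSMD3 alone had newborn animals that did not all exceed the fetal ones. PSMD6, with the smallest change of the group (log2 0.28, SE 0.22, adjusted p = 0.349), and PSMD8 (log2 0.39, SE 0.22, adjusted p = 0.19) did not pass the test with all arrays, whereas with the even arrays they were higher by log2 1.04 (adjusted p = 0.000533) and 1.15 (adjusted p = 0.000211).

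Of the alpha-ring subunits 6 of 7 were higher at 1 dpn. PSMA7 had signals of 15088, 17794 and 19761 at 94 dpc, 27752, 44256 and 53683 at 1 dpn, 16979, 19121 and 21565 at 28 dpn, and 16022, 17444, 17020.0 and 20572 at 188 dpn, with all newborn animals above the animals of every other stage. It was 2.34-fold higher than at 94 dpc (log2 1.23, SE 0.16, adjusted p = 3.7e-06). PSMA7 was the 1 member brighter on all 4 arrays of low 5′ signal (43010.1 to 53683) than on both even arrays (27752 and 33121), which gave a rise of log2 0.80 (adjusted p = 0.00208). PSMA1 (log2 1.12, SE 0.16, adjusted p = 1.31e-05, even arrays 1.38), PSMA4 (log2 1.06, SE 0.17, adjusted p = 3.7e-05, even arrays 1.37) and PSMA3 (log2 0.95, SE 0.17, adjusted p = 0.000174, even arrays 1.37) also rose without overlap. The rise of PSMA2 (log2 0.65, adjusted p = 0.0117, even arrays 1.11) was not called after quantile normalization (0.25, adjusted p = 0.331). That of PSMA5 (log2 0.79, adjusted p = 0.0435, even arrays 1.87) lost its call in 12 of 33 alternatives. The newborn range of PSMA5 (1238 to 7188) contained the fetal one (1419 to 2081). PSMA6 had the smallest change (log2 0.36, SE 0.18, adjusted p = 0.133), and log2 0.91 with the even arrays (adjusted p = 0.000493).

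In the beta ring 4 of 7 subunits rose. PSMB4, a non-catalytic subunit, had signals of 7871, 8981 and 10395 at 94 dpc, 12390.4, 17033 and 29283 at 1 dpn, 7837, 9066 and 9133 at 28 dpn, and 11418, 12588, 11148 and 13287 at 188 dpn. Its newborn animals all lay above the fetal animals and above those of 28 dpn (log2 0.99, SE 0.17, adjusted p = 7.96e-05, even arrays 1.32, for 1 dpn against 94 dpc). PSMB1 rose as well (log2 0.74, SE 0.20, adjusted p = 0.00542, even arrays 1.34), but not after quantile normalization (log2 0.36, adjusted p = 0.17). PSMB2 (log2 0.43, SE 0.23, adjusted p = 0.178) and PSMB3 (log2 0.60, SE 0.31, adjusted p = 0.144) did not pass the test with all arrays. The even arrays put them log2 1.28 and 1.65 higher (adjusted p = 2.68e-05 and 0.000142).

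Of the 3 standard catalytic subunits PSMB6 and PSMB7 rose and PSMB5 did not pass the test. PSMB6, which carries the caspase-like site, had signals of 6823, 7959.6 and 9940.0 at 94 dpc, 11633, 14766 and 17935 at 1 dpn, 11744, 13525 and 16192 at 28 dpn, and 14543, 17768, 17296 and 17397 at 188 dpn, and newborn animals all lay above fetal ones (log2 0.84, SE 0.15, adjusted p = 0.00013, even arrays 0.89). PSMB7, with the trypsin-like site, had signals of 7927, 9145 and 9862 at 94 dpc, 9096, 11820.5 and 21359 at 1 dpn, 6726, 8101 and 8423 at 28 dpn, and 7480.1, 7997, 8071 and 9747 at 188 dpn (log2 0.47, SE 0.17, adjusted p = 0.0353 for 1 dpn against 94 dpc). PSMB5, with the chymotrypsin-like site, had signals of 7700.2, 8707 and 10208 at 94 dpc, 5752, 8903 and 13343 at 1 dpn, 8234, 10143 and 10911 at 28 dpn, and 13359, 14065, 13217 and 13637 at 188 dpn, and the newborn range contained the fetal one (log2 0.012, SE 0.16, adjusted p = 0.967). For PSMB7 the highest newborn array, replicate 6, stood apart from the rest. Quantile normalization lowered the change of PSMB6 to log2 0.37 (adjusted p = 0.0555), which ended its call, and turned the change of PSMB7 to log2 -0.030 (adjusted p = 0.915) and that of PSMB5 to log2 -0.46 (adjusted p = 0.0215). The even arrays gave log2 0.76 for PSMB7 (adjusted p = 0.0135) and 0.33 for PSMB5 (adjusted p = 0.218).

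Among the ATPases of the regulatory particle 1 of 5, PSMC2, was higher at 1 dpn (log2 0.83, SE 0.23, adjusted p = 0.00834, even arrays 1.53). With its probe sets averaged, the change of PSMC2 was log2 0.39 (adjusted p = 0.0998) and was not called. PSMC5 had the smallest change of the group (log2 0.084, SE 0.21, adjusted p = 0.8). Restricted to even arrays, 4 of the 5 were higher, PSMC1 by log2 1.45, PSMC2 by 1.53, PSMC3 by 0.86 and PSMC5 by 0.87, with adjusted p of 7.29e-05, 6.41e-05, 0.00168 and 0.000763. The exception was PSMC6 (log2 0.28, adjusted p = 0.391). On the even arrays PSMC5 had signals of 9263 and 10855, against 4003 to 4782 on the other newborn arrays and 4792, 5483 and 6072 at 94 dpc.

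PSME3, which forms a nuclear activator of the core particle, rose at 1 dpn as well (log2 1.50, SE 0.23, adjusted p = 2.6e-05, even arrays 2.10). Its signals were 271, 359 and 479.9 at 94 dpc, 745, 883 and 2313 at 1 dpn, 560.4, 732 and 922 at 28 dpn, and 730.5, 1038, 998 and 1050.2 at 188 dpn, and newborn animals all lay above fetal ones. PSME4, a large activator that caps the core without ubiquitin, had signals of 359, 449 and 579.9 at 94 dpc, 302, 429 and 4143 at 1 dpn, 865, 958 and 1669 at 28 dpn, and 1607, 1536, 2549 and 2703 at 188 dpn, and newborn replicate 1 stood far above the other newborn animals (log2 0.47, SE 0.42, adjusted p = 0.433, even arrays 1.53). PSMF1, an inhibitor of the core particle, had the lowest change of these 3 (log2 -0.23, SE 0.22, adjusted p = 0.461, even arrays -0.16).

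Of the 4 assembly chaperones 0 rose and 2 fell at 1 dpn. PSMD5, a chaperone of the regulatory particle's base, was lower at 1 dpn than at 94 dpc (log2 -0.81, SE 0.23, adjusted p = 0.00891), and PSMG3, a chaperone of the core alpha ring, was lower too (log2 -0.68, SE 0.21, adjusted p = 0.0145). These changes on even arrays were log2 -0.11 (adjusted p = 0.762) and -0.071 (adjusted p = 0.859), so neither fall was called there. Centring gave log2 -0.55 and -0.42 (adjusted p = 0.0783 and 0.156) and quantile normalization -0.56 and -0.49 (adjusted p = 0.061 and 0.0796), also without a call. PSMG1, which pairs with PSMG2 in the same task, changed by log2 0.50, SE 0.19, adjusted p = 0.0527 with all arrays and by log2 1.09 with the even arrays (adjusted p = 0.000407). PSMD10, a further base chaperone, had signals of 924, 1084 and 1237 at 94 dpc, 760.4, 882 and 1104 at 1 dpn, 428, 524 and 657 at 28 dpn, and 416, 312, 255 and 504 at 188 dpn. Its newborn and fetal ranges overlapped (log2 -0.28, SE 0.17, adjusted p = 0.204, even arrays -0.21), and it was lower later.

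**Figure D2:**
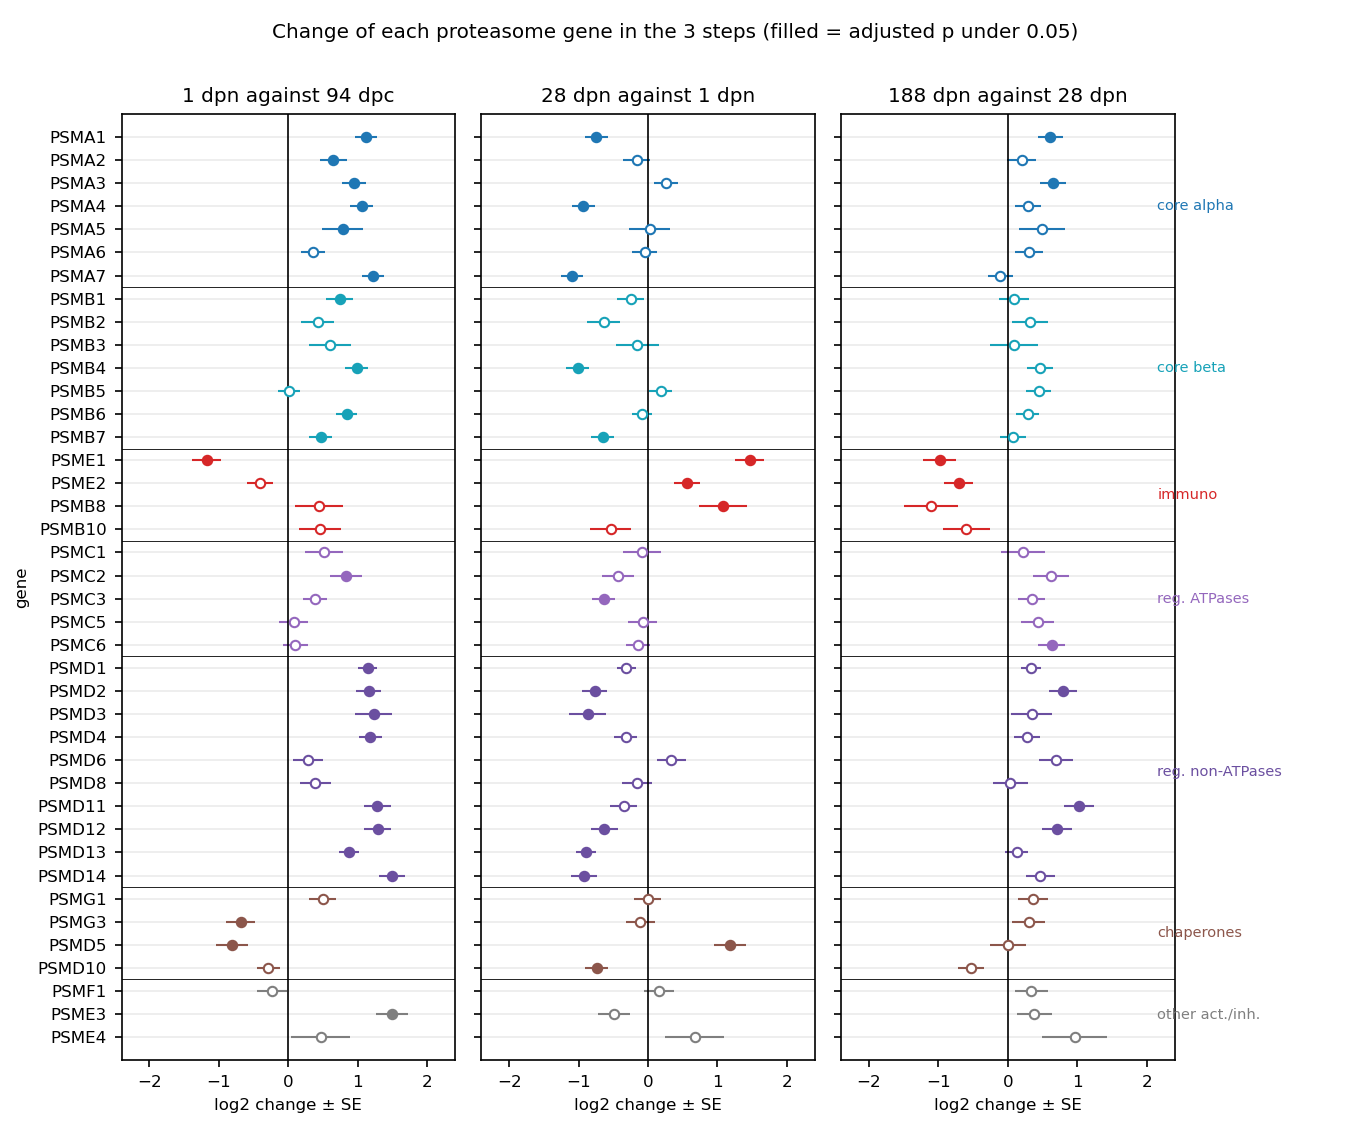
Points give the log2 change of each member with its SE from the limma fit in the 3 steps between adjacent ages, in age order from left to right, and filled points had an adjusted p under 0.05. At 1 dpn 20 of 40 members were called higher and 3 lower, at 28 dpn 12 were called lower and 4 higher, and at 188 dpn 6 were called higher and 2 lower. Among all probe sets the shares were 10.9% higher and 21.7% lower, 8.39% lower and 13.9% higher, and 3.65% higher and 8.2% lower.

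Between birth and 28 dpn 12 members fell and 4 rose (limma, adjusted p under 0.05), against 8.39% lower and 13.9% higher among all probe sets. The median change was log2 -0.21, against 0.10 over all probe sets. Among the brighter probe sets 17.2% were lower and 19.9% higher. Of the 29 core and regulatory subunits 11 fell and 0 rose, and the other fall was PSMD10 (log2 -0.74, SE 0.17, adjusted p = 0.00236, even arrays -0.81). With all arrays the largest falls were of PSMA7 (log2 -1.09, SE 0.16, adjusted p = 3.51e-05, even arrays -0.67), PSMB4 (log2 -1.01, SE 0.17, adjusted p = 0.000125, even arrays -1.34), PSMA4 (log2 -0.93, SE 0.17, adjusted p = 0.000291, even arrays -1.24) and PSMD14 (log2 -0.93, SE 0.19, adjusted p = 0.000979, even arrays -0.94), all without overlap between animals of 28 dpn and 1 dpn, whereas by the even arrays PSMD3, PSMB2 and PSMB4 led. PSMD13 (log2 -0.89, SE 0.15, adjusted p = 0.000131, even arrays -0.87), PSMD3 (log2 -0.87, SE 0.26, adjusted p = 0.0202, even arrays -1.62), PSMD2 (log2 -0.77, SE 0.18, adjusted p = 0.00357, even arrays -1.27) and PSMA1 (log2 -0.74, SE 0.16, adjusted p = 0.00166, even arrays -1.01) followed. PSMB7 (log2 -0.65, even arrays -0.95), PSMC3 (-0.64, even arrays -1.11) and PSMD12 (-0.63, even arrays -1.05) completed the falls. In a fit of only the stages compared, the falls of PSMB7, PSMC3, PSMD3 and PSMD12 were not called (adjusted p = 0.0557, 0.0606, 0.0977 and 0.0989). At the upper end of their role groups were PSMD6 (log2 0.34, even arrays -0.42), PSMA3 (0.25, even arrays -0.17), PSMB5 (0.18, even arrays -0.13), PSMC5 (-0.075, even arrays -0.86) and PSME4 (0.67, even arrays -0.39), none of which passed the test with all arrays, nor did PSME3 (-0.49, even arrays -1.10). The rise outside the immunoproteasome group was of PSMD5 (log2 1.18, SE 0.23, adjusted p = 0.000699), which was log2 0.49 with the even arrays (adjusted p = 0.137). On the even arrays 25 members were lower and 1 higher, against 5.39% and 11.2% of all probe sets, with a median of log2 -0.82. Of these, PSMB2 changed by log2 -1.49 (adjusted p = 1.39e-05), against -0.64 with all arrays (adjusted p = 0.0535), and PSMC1 by -1.02 (adjusted p = 0.00251), against -0.085 (adjusted p = 0.869).

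The 2 steps around birth share the newborn animals, so the newborn stage was also set against the mean of its neighbours in 1 contrast. At 1 dpn 18 members were higher and 3 lower than the mean of 94 dpc and 28 dpn (limma, adjusted p under 0.05), against 9.05% and 18.9% of all probe sets and 18.2% and 26.7% of the brighter ones. With all arrays the largest rises were of PSMD14 (log2 1.21, SE 0.16, adjusted p = 1.03e-05, even arrays 1.22), PSMA7 (log2 1.16, SE 0.14, adjusted p = 2.47e-06, even arrays 0.74), PSMD3 (log2 1.05, SE 0.23, adjusted p = 0.00144, even arrays 1.80), PSMB4 (log2 1.00, SE 0.14, adjusted p = 2.24e-05, even arrays 1.33), PSMA4 (log2 1.00, SE 0.14, adjusted p = 2.37e-05, even arrays 1.31) and PSME3 (log2 0.99, SE 0.20, adjusted p = 0.000593, even arrays 1.60). PSMD2 and PSMD12 completed the 8 largest, at log2 0.97 and 0.96. By role the counts were 3 of 7 alpha, 4 of 7 beta, 2 of 5 ATPase and 8 of 10 non-ATPase subunits, and PSME3. The ends of the groups that were not called were PSMA6 (log2 0.20), PSMB5 (-0.085), PSMB10 (0.50), PSMC5 (0.079), PSMD6 (-0.028), PSMF1 (-0.20) and PSMG1 (0.25), and PSMC2 led the ATPases (log2 0.63, SE 0.20, adjusted p = 0.0227, even arrays 1.33). The call of PSMC2 was lost with its probe sets averaged (log2 0.28, adjusted p = 0.206), after quantile normalization (0.49, adjusted p = 0.0695) and without newborn replicate 1 (0.46, adjusted p = 0.072) or 6 (0.52, adjusted p = 0.0666). The 3 lower members were PSME1 (log2 -1.32, SE 0.18, adjusted p = 1.59e-05, even arrays -0.76), PSMD5 (log2 -0.996, SE 0.20, adjusted p = 0.000671, even arrays -0.30) and PSME2 (log2 -0.49, SE 0.16, adjusted p = 0.0272, even arrays -0.57). The even arrays gave 28 members higher and 1, PSME1, lower (adjusted p = 0.0299), against 5.49% and 13.7% of all probe sets.

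**Figure D3:**
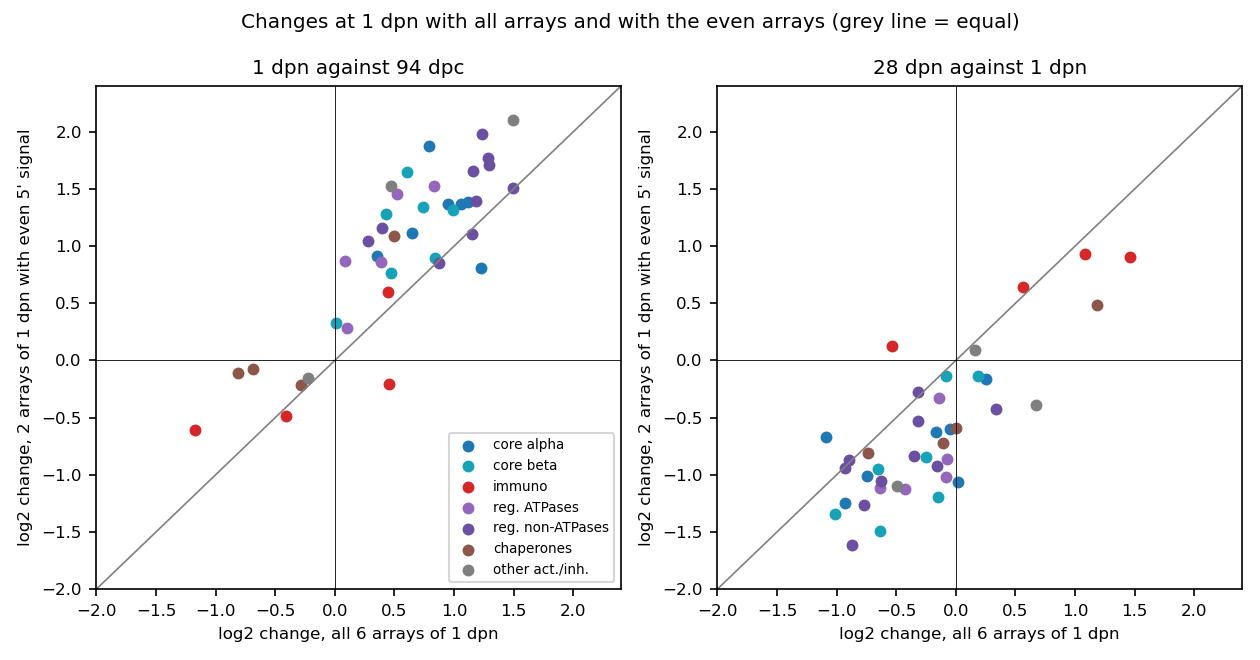
Each point is a member gene, coloured by role. The horizontal axis gives its log2 change with all 6 arrays of 1 dpn and the vertical axis the change with the 2 even arrays, for 1 dpn against 94 dpc on the left and 28 dpn against 1 dpn on the right, and on the grey line both are equal. Most core and regulatory members lie above the line on the left and below it on the right. For the right panel, 25 of all 40 members were called lower with the even arrays and 12 with all arrays, against 5.39% and 8.39% of all probe sets.

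At 188 dpn 6 members were higher and 2 lower than at 28 dpn (limma, adjusted p under 0.05), against 3.65% and 8.2% of all probe sets and 8.07% and 14.8% of the brighter ones. The 6 were PSMD11 (log2 1.02, SE 0.22, adjusted p = 0.00333), PSMD2 (log2 0.80, SE 0.20, adjusted p = 0.0113), PSMD12 (log2 0.71, SE 0.22, adjusted p = 0.0355), PSMA3 (log2 0.65, SE 0.19, adjusted p = 0.0281), the ATPase PSMC6 (log2 0.63, SE 0.20, adjusted p = 0.0423) and PSMA1 (log2 0.61, SE 0.18, adjusted p = 0.0272), all without overlap between stages. Quantile normalization ended the calls of PSMA1, PSMA3 and PSMC6 (adjusted p = 0.0613, 0.0587 and 0.0943). The 2 lower members were PSME1 and PSME2. No beta-ring subunit passed the test, with changes of log2 0.072 for PSMB7 to 0.47 for PSMB4. For PSMB2, PSMB4 and PSMB5, however, all animals of 188 dpn lay above all animals of 28 dpn. PSMB5 (log2 0.44, adjusted p = 0.124) was called after centring (0.65, adjusted p = 0.0384). It was also called with the even arrays as the only newborn arrays (0.44, adjusted p = 0.0445). In the other groups the extremes were PSMA7 (log2 -0.11), PSMC1 (0.22), PSMD8 (0.037), PSMD10 (-0.53), PSMG1 (0.37), PSMF1 (0.34) and PSME4 (0.96), none of which was called. Leaving out replicate 4 of 28 dpn, or replicate 2 or 3 of 188 dpn, left 2 members higher. Leaving out replicate 2, 4, 5 or 6 of 28 dpn, or replicate 1, 2 or 3 of 188 dpn, left 1 member lower.

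Relative to the fetal stage, 20 members were higher and 3 lower at 188 dpn, against 13.6% and 22.5% of all probe sets (36.2% in either direction), and among the brighter probe sets against 23.9% and 34.2%. PSME4 changed most (4.29-fold; log2 2.10, SE 0.47, adjusted p = 0.00106), and its 4 animals of 188 dpn lay above all fetal animals. Next came PSMD11 (log2 1.96, SE 0.22, adjusted p = 2.42e-07) and PSMA3 (log2 1.85, SE 0.19, adjusted p = 8.87e-08), an alpha-ring subunit with signals of 2883, 3222 and 3409 at 94 dpc, 4915, 5592 and 9257 at 1 dpn, 5093, 7474 and 8871 at 28 dpn, and 12603, 12112, 10786 and 10521 at 188 dpn. Its median was higher at each later stage, and all animals of 188 dpn lay above all others. PSME3 (log2 1.38, SE 0.25, adjusted p = 0.00014), PSMD12 (log2 1.37, SE 0.22, adjusted p = 2.67e-05), PSMD6 (log2 1.31, SE 0.24, adjusted p = 0.000139), PSMA5 (log2 1.31, SE 0.33, adjusted p = 0.0031) and PSMD2 (log2 1.19, SE 0.20, adjusted p = 5.82e-05) were the other large rises, and PSMB6 (log2 1.04, SE 0.16, adjusted p = 2.45e-05) and PSMC2 (log2 1.02, SE 0.26, adjusted p = 0.00347) led the beta ring and the ATPases. PSMA7 (log2 0.028), PSMB7 (-0.11), PSMC3 (0.087) and PSMD13 (0.11) had changes near 0 over the whole span, and none passed the test, although quantile normalization put PSMB7 lower (log2 -0.60, adjusted p = 0.0117). PSMD10 fell to the lowest level of the 4 stages (log2 -1.56, SE 0.18, adjusted p = 6.09e-07), and the other 2 lower members were PSME1 (log2 -0.69, SE 0.24, adjusted p = 0.0256) and PSME2 (log2 -0.55, SE 0.21, adjusted p = 0.0428), neither of them called after centring (log2 -0.42 and -0.28, adjusted p = 0.206 and 0.328). PSMG1 was the 1 chaperone that rose (log2 0.86, SE 0.22, adjusted p = 0.00294). The count of lower members was 1 when replicate 5 of 94 dpc, or replicate 2, 3 or 4 of 188 dpn, was left out.

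Of the immunoproteasome genes PSMB8, PSME1 and PSME2 had their highest mean level at 28 dpn. PSME1 had signals of 2482, 2781 and 3257 at 94 dpc, 873, 1108 and 1878 at 1 dpn, 1946, 3607 and 4563 at 28 dpn, and 2074, 1633, 1570.4 and 1671 at 188 dpn. All newborn animals lay below all fetal animals and below all animals of 28 dpn. PSME1 was 2.25-fold lower at 1 dpn than at 94 dpc (log2 -1.17, SE 0.21, adjusted p = 0.000183), 2.76-fold higher at 28 dpn than at 1 dpn (log2 1.46, SE 0.21, adjusted p = 3.51e-05) and 1.97-fold lower at 188 dpn than at 28 dpn (log2 -0.98, SE 0.24, adjusted p = 0.00835), the last with overlap. With the even arrays the first change was log2 -0.61 (adjusted p = 0.0843) and the second 0.90 (adjusted p = 0.019).

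PSME2, the partner of PSME1 in the activator and separated from it by 1 gene in RefSeq, had signals of 1501, 1662 and 1749 at 94 dpc, 835, 1329.7 and 1635 at 1 dpn, 1147, 1997 and 2459 at 28 dpn, and 1154, 1169, 1043 and 1108 at 188 dpn. Its newborn and fetal ranges overlapped (log2 -0.41, SE 0.19, adjusted p = 0.101, even arrays -0.49). It was higher at 28 dpn than at 1 dpn (log2 0.57, SE 0.19, adjusted p = 0.0312) and lower at 188 dpn than at 28 dpn (log2 -0.71, SE 0.21, adjusted p = 0.028), with overlap between stages in both steps. Centring ended both calls (log2 0.37 and -0.51, adjusted p = 0.181 and 0.14). With the even arrays the rise at 28 dpn was log2 0.65 and was not called (adjusted p = 0.116).

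PSMB8, the inducible counterpart of PSMB5, had signals of 130.0, 154 and 318 at 94 dpc, 124, 252 and 619.8 at 1 dpn, 355, 462 and 1446 at 28 dpn, and 169, 270.5, 233 and 347 at 188 dpn. Replicate 5 of 28 dpn was highest, and the animals of 188 dpn lay below all animals of 28 dpn. The level at 28 dpn was 2.12-fold that at 1 dpn (log2 1.08, SE 0.34, adjusted p = 0.025), log2 0.93 with the even arrays (adjusted p = 0.261) and log2 0.81 without replicate 5 of 28 dpn (adjusted p = 0.0714). Centring also ended the call (log2 0.89, adjusted p = 0.072). The lower level at 188 dpn missed the threshold (log2 -1.11, SE 0.38, adjusted p = 0.0627) and passed it with trended and robust variances (adjusted p = 0.0367), array weights (0.0371) or the probe sets brighter than the median one (0.0291). PSMB10, the inducible counterpart of PSMB7, had signals of 659, 866 and 1173 at 94 dpc, 448, 1202 and 2639 at 1 dpn, 573, 888 and 1101 at 28 dpn, and 682, 444, 491 and 574 at 188 dpn, and its newborn range contained all values of 94 dpc and 28 dpn. None of its steps passed the test (log2 0.46 at 1 dpn, -0.54 at 28 dpn and -0.60 at 188 dpn, adjusted p = 0.263, 0.215 and 0.282), and with the even arrays its change at 1 dpn was log2 -0.21 (adjusted p = 0.712). Without newborn replicate 1 it was called higher at 1 dpn (log2 0.74, adjusted p = 0.0235) and lower at 28 dpn (-0.82, adjusted p = 0.0171). Array weights also gave a call at 1 dpn (0.71, adjusted p = 0.0387). At 188 dpn against 94 dpc PSMB10 changed by log2 -0.68 (adjusted p = 0.123), and it was called lower in 4 of 33 alternatives.

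Of the 4 immunoproteasome genes, 3 were thus higher at 28 dpn than at 1 dpn and 0 lower, whereas of the 29 core and regulatory subunits 0 were higher and 11 lower, against 13.9% higher and 8.39% lower of all probe sets and 19.9% and 17.2% of the brighter ones. Without replicate 5 of 28 dpn the members called higher fell by 2, to PSME1 and PSMD5. By the even arrays PSME1 alone was called higher.

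**Figure D4:**
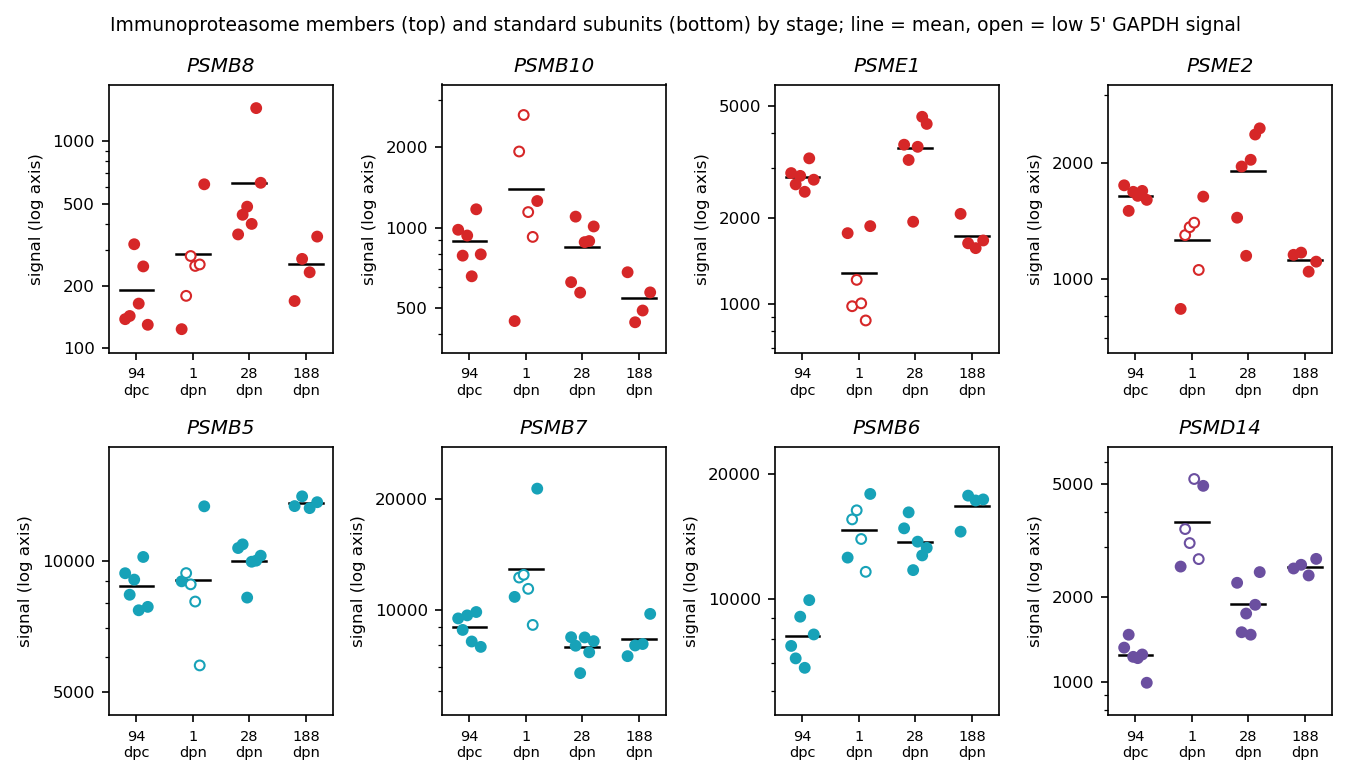
Signal on a log axis for each animal at the 4 stages, with the stage mean as a line and open points for the 4 newborn arrays of low 5′ GAPDH signal. The upper row holds the immunoproteasome genes, of which PSMB8, PSME1 and PSME2 have their highest mean at 28 dpn, and the lower row holds the standard catalytic subunits and PSMD14, which has its highest mean at 1 dpn.

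The balance of inducible and standard subunits was compared within each array as the log2 level of PSMB8 minus that of PSMB5, which cancels the scaling of the array. The exact permutation test was two-sided, and p-values were adjusted over 6 tests, since PSMB9 had no named probe set. It lay between -6.17 and -5.23 in the animals of 188 dpn, against -4.85 to -2.78 at 28 dpn, with no overlap. At 188 dpn this difference was lower than at 28 dpn by 1.55 on the log2 scale (difference -1.55, exact permutation test, p = 0.00476, the smallest p that 4 against 6 animals allow, adjusted p = 0.0286), and it was lower in 4 of 4 animals of 188 dpn than in any of 28 dpn. Leaving out 1 sample gave differences between -1.70 and -1.28 with adjusted p from 0.0476 to 0.119. At 28 dpn the difference was 0.90 higher than at 1 dpn (exact permutation test, p = 0.0476, adjusted p = 0.0952), and at 1 dpn it was 0.43 higher than at 94 dpc (exact permutation test, p = 0.193, adjusted p = 0.289). For PSMB10 minus PSMB7 the changes were -0.012 at 1 dpn, 0.12 at 28 dpn and -0.67 at 188 dpn, with adjusted p of 0.968, 0.912 and 0.0714 in the exact permutation test. With the even arrays the first 2 of these were -0.97 and 1.08 (adjusted p = 0.0536 each). Both even arrays lay below all arrays of 94 dpc and of 28 dpn. The unadjusted p was thus the smallest that 2 against 6 arrays allow.

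The immunoproteasome supplies peptides to class I molecules. Changes of genes outside the symbol rule, here and below, were taken from all 6 newborn arrays, 4 of them with low 5′ signal. Of 11 measured class I antigen presentation genes, 6 were higher and 2 lower at 28 dpn than at 1 dpn, and 0 were higher and 7 lower at 188 dpn than at 28 dpn. Among all probe sets 13.9% were higher and 8.39% lower in the first of these steps, and 3.65% and 8.2% in the second. The peptide transporter TAP1, which adjoins PSMB8 in RefSeq, averaged 1147 ± 435 at 28 dpn, against 604 ± 319.6 at 1 dpn (SD, n = 6 each; log2 0.95, adjusted p = 0.0268), and 338 ± 94.3 at 188 dpn (SD, n = 4; log2 -1.66 against 28 dpn, adjusted p = 0.00237). The class I heavy chain SLA-3 changed by log2 1.34 at 28 dpn and -1.81 at 188 dpn (adjusted p = 0.00116 and 0.000594), while B2M, the light chain, was higher at 1 dpn than at 94 dpc (log2 0.50, adjusted p = 0.00667) and lower at 28 dpn than at 1 dpn (-0.51, adjusted p = 0.00889). Of 12 measured interferon signalling genes, 6 were higher and 1 lower at 28 dpn, and 0 higher and 7 lower at 188 dpn. IRF1, a transcription factor that interferon induces and that acts on these genes, changed by log2 0.80 at 28 dpn (adjusted p = 0.0864) and fell at 188 dpn (-1.58, adjusted p = 0.00665).

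Leukocyte and endothelial markers also differed between these stages. Mean signals at 94 dpc, 1 dpn, 28 dpn and 188 dpn were 2804, 1287, 3541 and 1737 for PSME1. They were 1645, 1264, 1902 and 1118 for PSME2, 191, 284, 626 and 255 for PSMB8, and 889, 1391, 848 and 548 for PSMB10. PSMB10 did not pass the test at 28 dpn against 1 dpn (log2 -0.54, even arrays 0.13). Of 8 measured macrophage and leukocyte markers 6 were higher and 0 lower at 28 dpn than at 1 dpn, and their summed signal ranged from 3204 to 12849 at 28 dpn (median 7711), against 1602 to 3934 at 1 dpn (median 1986). At 188 dpn 0 were higher and 2 lower than at 28 dpn, with sums of 1834 to 6681 (median 2797). Endothelial markers were 6 of 7 higher and 0 lower at 28 dpn than at 1 dpn, and 6 of 7 lower and 0 higher at 1 dpn than at 94 dpc, and 4 of 7 were lower and 0 higher at 188 dpn than at 28 dpn. Their summed signal had medians of 16024, 4799, 11238 and 3729 at 94 dpc, 1 dpn, 28 dpn and 188 dpn. The 5 measured lymphocyte markers had means below background at 94 dpc and 1 dpn, and 2 of the 5 still did at 28 dpn. Of 4 measured fibroblast markers 1 was higher and 0 lower at 28 dpn than at 1 dpn, and of 3 erythroid markers 1 and 0. Among all probe sets 13.9% were higher and 8.39% lower at 28 dpn than at 1 dpn. The shares were 10.9% and 21.7% at 1 dpn against 94 dpc, and 3.65% and 8.2% at 188 dpn against 28 dpn. The part of any of these cell types in the immunoproteasome levels was not tested.

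Of 16 listed proteasome partners outside the symbol rule 5 were measured, and 3 were higher and 1 lower at 1 dpn than at 94 dpc. Among all probe sets 10.9% were higher and 21.7% lower. SEM1, a small subunit of the regulatory particle's lid, averaged 14170.0 ± 2528 at 1 dpn, against 5069.7 ± 592 at 94 dpc (SD, n = 6 each; log2 1.47, adjusted p = 3.02e-07). It was lower at 28 dpn than at 1 dpn (log2 -0.91, adjusted p = 0.000179) and higher again at 188 dpn (0.96, adjusted p = 0.000882). ZFAND5, which stimulates the proteasome, rose at 1 dpn (log2 1.17, adjusted p = 0.000275), as did TXNL1, a thioredoxin-like protein of the regulatory particle (0.62, adjusted p = 0.0267). AKIRIN2, which brings proteasomes into the nucleus, fell (-0.94, adjusted p = 0.00146). Values with the even arrays are not given for AKIRIN2 or the other genes outside the symbol rule. PAAF1, which regulates assembly of the core with the regulatory particle, was lower at 28 dpn than at 1 dpn (-0.88, adjusted p = 0.000714).

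Upstream of the proteasome, 6 of 10 measured ubiquitin and conjugation genes were higher at 1 dpn than at 94 dpc and 0 lower, against 10.9% and 21.7% of all probe sets. VCP, the segregase that extracts ubiquitinated proteins, averaged 8745 ± 2071 at 1 dpn, against 4136 ± 671 at 94 dpc (SD, n = 6 each; log2 1.06, adjusted p = 1.89e-05), and was lower at 28 dpn than at 1 dpn (-0.80, adjusted p = 0.000735). The conjugating enzyme UBE2D2 rose at 1 dpn (0.95, adjusted p = 3.67e-06) and at 28 dpn differed from 1 dpn by log2 0.075 (adjusted p = 0.72). Of 4 measured muscle ubiquitin ligases 0 passed the test at 1 dpn against 94 dpc. The atrophy ligase FBXO32 averaged 5076 ± 10811 at 1 dpn, against 709.9 ± 89.4 at 94 dpc, with an SD above its mean at 1 dpn (log2 0.64, adjusted p = 0.541). Of 10 measured autophagy genes 4 were higher and 2 lower at 1 dpn, and the lower ones lay near the 21.7% of all probe sets. Among these SQSTM1, a cargo receptor, rose at 1 dpn (log2 1.50, adjusted p = 0.000158), fell at 28 dpn (-1.03, adjusted p = 0.00759) and rose again at 188 dpn (1.32, adjusted p = 0.00531). The 3 measured regulators of subunit transcription, FOXO1, FOXO3 and STAT3, passed the test in none of the 5 comparisons.

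For 4 members more than 1 probe set was present, and they did not always move together at 1 dpn. The second probe set of PSMD11 had signals of 137 to 263 on the newborn arrays of low 5′ signal and of 2611 and 5246 on the even arrays, against 749 to 1168 at 94 dpc. Its fitted change at 1 dpn was log2 -0.81 (adjusted p = 0.342), of opposite sign to that of the brightest probe set. The second probe set of PSMF1 had signals of 8.51 to 79.5 on the arrays of low 5′ signal and of 263 and 507 on the even arrays, against 318 to 442 at 94 dpc (log2 -2.17, adjusted p = 0.00261). PSMC2 had a second probe set that rose (log2 0.71, adjusted p = 0.000891) and another, the dimmest, that did not pass the test (-0.36, adjusted p = 0.26). Both probe sets of PSMD1 rose, the second by log2 0.77 (adjusted p = 0.0027). When probe sets of 1 gene were averaged, the newborn level of PSMD11 against its neighbours was log2 -0.17 (adjusted p = 0.688), against 0.82 with the brightest. The position of these probe sets along the transcripts was not analysed here.

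**Figure D5:**
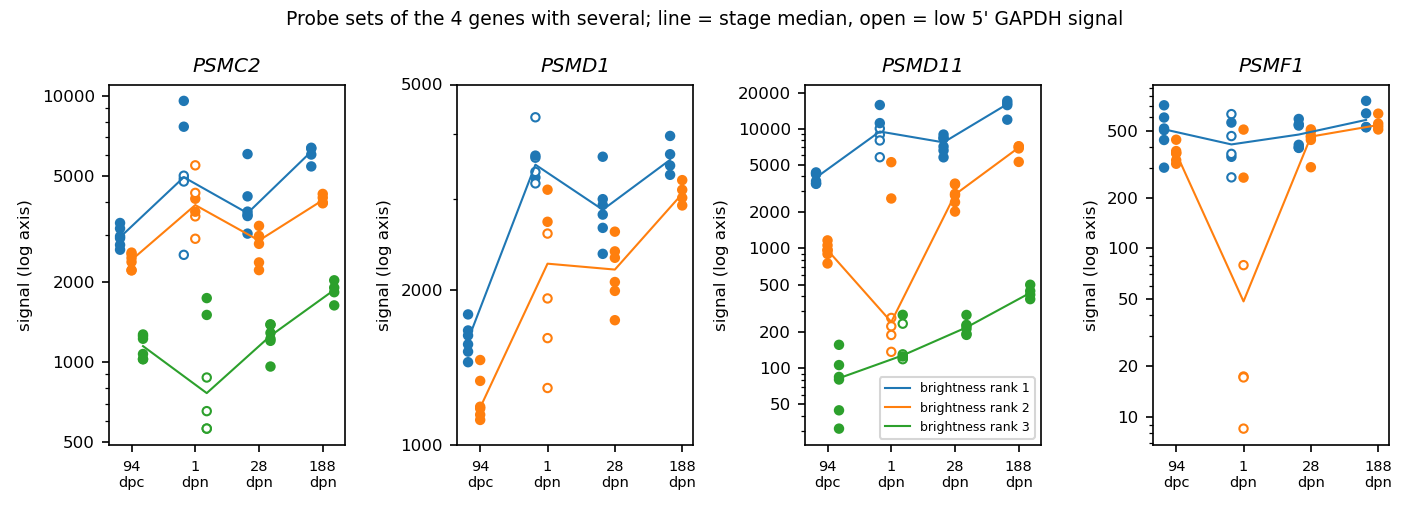
Signal on a log axis of every probe set of PSMC2, PSMD1, PSMD11 and PSMF1, numbered by brightness, with a line through the stage medians and open points for the 4 newborn arrays of low 5′ GAPDH signal. The second probe sets of PSMD11 and PSMF1 are low on those 4 arrays and not on the 2 even arrays.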

How the data were processed

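One signal value per probe set and sample (22 samples) was deposited from Affymetrix porcine arrays. The deposited intensity values came from GCOS 1.1.1, per the submitters' processing notes. They were linear, had a mean of 500.1 to 500.2 once 2% was trimmed at each end, and were used as log2(signal + 16) with no further scaling. Fold changes on this scale understate changes of dim genes. After removal of 124 controls, 23999 probe sets were tested, of which 10069 had 1 symbol, 198 several and 13732 none. Symbols were updated through RefSeq.

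The limma fit (limma 3.58.1, R 4.3.3, and statmod 1.5.0 for array weights) had a mean for each of the 4 stages. The variance of a probe set was shared by all stages. The larger spread at 1 dpn therefore enters the SE and p of every comparison, also those without newborn arrays. Benjamini-Hochberg adjustment ran over all probe sets within each of 5 comparisons and an F test, and calls were made at an adjusted p under 0.05. Siblings within a stage were treated as independent, also in the permutation tests, so p-values measure the spread between these samples and may be too small. Precision is limited by the number of arrays (6, 6, 6 and 4) and by the 3 gilts behind each stage. Background was the 95th percentile of 23 control probe sets, a signal of 69.7. No arrays held identical values. The fit was tested on simulated data.

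Members, lists and tests were chosen with earlier results of these data known. Named with values were the immunoproteasome genes, PSMB5, PSMB6 and PSMB7, the 8 largest called rises and falls of each comparison, and the extremes of each role group. Further genes were named after their values were seen. Alternatives were quantile normalization, centring, a pseudocount of 1, other variance models, array weights, fewer stages or probe sets, averaged probe sets of a gene, the even arrays, the GAPDH ratio in the model, removal of the pair of arrays richest in liver and pancreas transcripts, and removal of each sample.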

Additional observations from a re-analysis of the deposited data

Results flagged for a closer look

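Of 160 combinations of member and stage, 11 had 1 animal whose gap to the nearest other was large for the range of its group by Dixon's test, where chance gives about 1 in 20. At 1 dpn the high animals were on the even arrays. They were PSMB7 in replicate 6, at 21359 with the others at 9096 to 12450.4, PSME3 in replicate 6, at 2313 with the others at 745 to 1055, and PSME4 in replicate 1, at 4143 with the others at 302 to 769.

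At 28 dpn replicate 3 stood apart for 3 members. PSME4 was high at 1669 with the others at 865 to 988, PSMC3 was high at 6869 with the others at 4639.8 to 5239, and PSMB5 was low at 8234 with the others at 9954 to 10911. At 188 dpn replicate 1 was low for PSMB6, at 14543 with the others at 17296 to 17768, and for PSME3, at 730.5 with the others at 998 to 1050.2. At 94 dpc replicate 6 was low for PSMA6, at 7819 with the others at 8716 to 9152, and for PSMD13, at 2818 with the others at 3301 to 3621. Replicate 2 of 94 dpc was high for PSMA5, at 2081 with the others at 1419 to 1556.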

How the results depend on the processing

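No paired analysis was possible because the labels give no replicate numbers shared between stages. The planned test of PSMB9 against PSMB6 was not run, since PSMB9 had no named probe set.

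Leaving out each sample in turn gave 30 to 36 members in the F test, 18 to 27 higher and 3 to 3 lower at 1 dpn against 94 dpc, 2 to 4 higher and 11 to 14 lower at 28 dpn against 1 dpn, 2 to 8 higher and 1 to 3 lower at 188 dpn against 28 dpn, 18 to 23 higher and 1 to 4 lower at 188 dpn against 94 dpc, and 16 to 21 higher and 2 to 4 lower at 1 dpn against its neighbours. For the subunit pairs it gave 0.31 to 0.63, 0.63 to 1.04 and -1.70 to -1.28 for PSMB8 minus PSMB5 at 1, 28 and 188 dpn, and -0.24 to 0.23, -0.12 to 0.34 and -0.83 to -0.59 for PSMB10 minus PSMB7. Adjusted p in the exact permutation test was 0.0476 to 0.119 for both pairs at 188 dpn. The call of the first was thus lost in some and the second was called in some. Leaving out an animal of either stage compared also raises the smallest p that this test allows.

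Counts that moved by over 1.5 times were, for 1 dpn against 94 dpc, 1 lower after centring, 0 with the even arrays and 1 with the GAPDH covariate. For 28 dpn against 1 dpn there were 2 higher after centring and with only the stages compared, 1 higher and 25 lower with the even arrays, and 1 higher and 24 lower with the covariate. For 188 dpn against 28 dpn there were 3 higher after quantile normalization, 10 higher and 1 lower after centring, 12 higher with the even arrays, 1 lower with only the stages compared, and 4 lower with trended and robust variances, with array weights and with the probe sets brighter than the median one. For 188 dpn against 94 dpc there was 1 lower after centring, and 5 with array weights, with only the stages compared and with the even arrays. Neither comparison of 188 dpn holds a newborn array. With the even arrays their log2 changes therefore stayed the same, and only the fit of the variance shared by the stages differed. For 1 dpn against its neighbours there were 28 higher and 1 lower with the even arrays, and 29 and 1 with the covariate. Counts that did not pass this limit include 2 with only the stages compared. At 188 dpn against 94 dpc 26 members were higher, against 20 in the main fit. At 28 dpn against 1 dpn 8 were lower, against 12. The shares of all probe sets in that fit are not given here. Centring turned the median of all probe sets from -0.08 to 0.18 for 1 dpn against 94 dpc, and the share of called probe sets that were higher was 57.7% after centring and 47.4% after quantile normalization, against 33.5% as deposited. For the other comparisons, in the order above, the share was 39.7%, 60.1%, 56.2% and 59.96% after centring and 49.8%, 44.2%, 48.6% and 48.4% after quantile normalization, against 62.4%, 30.8%, 37.7% and 32.4% as deposited.

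Of single genes, PSMB5 and PSMB7 at 1 dpn against 94 dpc reversed after quantile normalization, to log2 -0.46 (adjusted p = 0.0215, against 0.012 and 0.967) and -0.030 (adjusted p = 0.915, against 0.47 and 0.0353), and PSMD11 against its neighbours reversed with the mean of its probe sets, to -0.17 (adjusted p = 0.688). The cause was not tested. A change of sign between values called under neither setting was not counted as a reversal. The 2 even arrays carry the newborn values under that setting, and 188 dpn rests on 4 animals.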
